A study of Mus musculus with 6 samples.

Results

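The genes described here make, store, take up and break down histamine and serotonin, and their RNA was followed in EML cells, a mouse blood progenitor line that is grown with stem cell factor. They were chosen by name, as the entries of the deposited tables whose RefSeq accession belongs to Hdc, Tph1, Ddc, Slc6a4, Slc18a2, Maoa, Maob or Hnmt. All 8 genes were found, each as 1 entry, among 23146 entries in all. The study asked how mRNA levels differ with loss and gain of KAI1, the tetraspanin membrane protein that Cd82 encodes. Libraries came from a KAI1 knockdown (n = 2), its knockdown control (n = 2), a KAI1 overexpression (n = 1) and its overexpression control (n = 1). The labels give all 6 libraries the line EML, the strain BDF1, the tissue bone marrow and the cell type basophil. The sources used here do not give how KAI1 was knocked down or overexpressed, or whether the cells were pools or clones. Nor do they state separate cultures for the replicates, so a p-value here covers the spread between libraries, which may be technical.

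Histamine is made from histidine by histidine decarboxylase, and serotonin from tryptophan by tryptophan hydroxylase followed by aromatic amino acid decarboxylase. A vesicular transporter loads both amines into granules, a plasma membrane transporter returns serotonin to the cell, and monoamine oxidases and histamine N-methyltransferase inactivate the amines inside the cell. Mast cells and basophils are the blood cells best known for making histamine, rodent mast cells also make serotonin, and platelets take serotonin up rather than make it.

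Values are the authors' RPKM, read numbers scaled to transcript length and library depth, so levels can be set side by side between genes. The depth estimated from the steps between low values was 12400000 and 18800000 reads in the KAI1 knockdown, 18400000 and 9560000 in the knockdown controls, 18900000 in the KAI1 overexpression and 25000000 in the overexpression control. Cd82 itself stood at 7.65 and 6.91 RPKM in the KAI1 knockdown, against 43.9 and 13.8 RPKM in the knockdown controls, and stood at 15.2 RPKM in the KAI1 overexpression, against 11.9 RPKM in the overexpression control. Limma did not call its knockdown difference (log2 -1.64, adjusted p = 0.83), and its ratio in the overexpression arm was 1.26 on the RPKM + 1 scale, so the groups carry the names of their labels. The knockdown controls were unlike each other: on the RPKM + 1 scale, control replicate 1 exceeded control replicate 2 at least 2-fold in 12.8% of the 10113 entries that averaged 1 RPKM or more in the knockdown arm, and fell short of it at least 2-fold in 8.56%. Between the KAI1 knockdown libraries these shares were 0.89% and 1.64%. The labelled cell type was only partly matched by markers: the basophil protease gene Mcpt8 stood between 116 and 3908 RPKM over the 6 libraries, but the basophil protease gene Prss34 at 4.2 RPKM or less, beside mast cell proteases and globins in every library.

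Hdc, histidine decarboxylase and so the histamine-making enzyme (chromosome 2, 126419404 to 126444401 on mm9), was the most abundant of the 8 genes in every library but the KAI1 overexpression, where Slc6a4 was higher. It stood at 32.7 and 64.2 RPKM in the KAI1 knockdown, against 902 and 150 RPKM in the knockdown controls. Both knockdown libraries lay below both controls, which differed from each other 6.0-fold. The means were 48.4 ± 22.3 RPKM in the KAI1 knockdown and 526 ± 532 RPKM in the knockdown controls (SD, n = 2 each). The log2 difference was -2.98 (SE 0.96), which limma, fitted across all entries, did not call (adjusted p = 0.83). In bulk RNA, fewer cells of a type and less RNA per cell cannot be told apart.

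In the overexpression arm Hdc stood at 52.8 RPKM in the KAI1 overexpression library, against 25.1 RPKM in its control, a ratio of 2.10. The overexpression control was the lowest of all 6 libraries for Hdc, below both KAI1 knockdown libraries, and the KAI1 overexpression lay between the KAI1 knockdown libraries. With 1 library on each side, this arm has no replicate check and no test.

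Tph1, tryptophan hydroxylase 1, which carries out the rate-limiting step of serotonin synthesis outside the brain (chromosome 7, 53902501 to 53927907), had the widest range of the members above 0 in every library. It stood at 1.43 and 3.40 RPKM in the KAI1 knockdown, against 266 and 10.4 RPKM in the knockdown controls. Both knockdown libraries were below both controls, and control replicate 1 stood 25.6-fold above control replicate 2. The log2 difference was -4.08 (SE 1.58), again without a call by limma (adjusted p = 0.83).

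Tph1 stood at 41.2 RPKM in the KAI1 overexpression library, against 0.917 RPKM in the overexpression control, a ratio of 44.9. On the log2(RPKM + 1) scale the ratio was 4.46, rank 30 of the 9936 entries that averaged 1 RPKM or more in this arm, or rank 11 of 9808 with small RNA entries left out. Tph2, the hydroxylase of brain neurons, was listed at 0 in all 6 libraries.

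Ddc, the decarboxylase that turns 5-hydroxytryptophan into serotonin (chromosome 11, 11714104 to 11798147), was low outside control replicate 1. It stood at 0.247 and 1.06 RPKM in the KAI1 knockdown, against 30.0 and 2.51 RPKM in the knockdown controls. These values matched 6 and 39 reads in the KAI1 knockdown and about 1083 and 47 reads in the controls. The 95% Poisson intervals, which cover counting error only, ran from 0.752 to 1.45 RPKM in KAI1 knockdown replicate 2 and from 1.84 to 3.33 RPKM in control replicate 2, so the nearest libraries of the groups were apart beyond counting error. The log2 difference was -2.70 (SE 1.12; adjusted p = 0.83 by limma).

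Ddc had 48 reads or 1.29 RPKM in the KAI1 overexpression, against 45 reads or 0.918 RPKM in its control. Their intervals of 0.954 to 1.72 RPKM and 0.669 to 1.23 RPKM overlapped, so no difference was detectable at this depth.

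Slc6a4, the serotonin transporter of the plasma membrane (chromosome 11, 76812099 to 76845845), stood at 22.2 and 11.1 RPKM in the KAI1 knockdown, against 357 and 35.7 RPKM in the knockdown controls. Both knockdown libraries lay below both controls. The log2 difference of -2.77 (SE 1.18) was not called by limma (adjusted p = 0.83).

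Slc6a4 reached 172 RPKM in the KAI1 overexpression, against 5.65 RPKM in the overexpression control, a ratio of 30.5. Its log2 ratio on the RPKM + 1 scale, 4.70, was rank 26 of 9936 entries, or rank 9 of 9808 with small RNA entries left out. The overexpression control was again the lowest of the 6 libraries, and the KAI1 overexpression second to control replicate 1 of the knockdown arm.

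The sequences around the start sites of Hdc, Tph1 and Slc6a4 are shown because these 3 genes had the highest peak levels of the group and were the members at least 2-fold higher in the KAI1 overexpression on the RPKM + 1 scale. Each window runs from 250 bases before to 50 bases after a RefSeq start site on GRCm38.p6, which is a later build than the mm9 of the deposited coordinates. Capitals mark GATA motifs, searched on both strands as AGATAA or AGATAG and as TGATAA or TGATAG, and the E-box letters CATGTG or CACGTG, also on both strands. For Tph1 the upstream one of its start sites is shown.
Hdc, chr2:126618629-126618928, minus strand: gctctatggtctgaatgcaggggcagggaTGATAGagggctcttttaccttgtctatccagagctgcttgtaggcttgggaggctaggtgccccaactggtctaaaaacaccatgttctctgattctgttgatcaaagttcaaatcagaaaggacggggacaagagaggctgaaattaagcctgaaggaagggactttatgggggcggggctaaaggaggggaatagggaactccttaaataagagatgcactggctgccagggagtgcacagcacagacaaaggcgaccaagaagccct
Tph1, chr7:46672488-46672787, minus strand: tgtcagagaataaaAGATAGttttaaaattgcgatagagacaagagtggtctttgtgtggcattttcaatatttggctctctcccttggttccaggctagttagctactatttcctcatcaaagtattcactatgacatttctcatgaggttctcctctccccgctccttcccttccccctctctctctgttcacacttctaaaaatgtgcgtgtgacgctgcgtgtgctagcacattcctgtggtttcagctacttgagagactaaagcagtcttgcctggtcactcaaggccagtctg
Slc6a4, chr11:76998347-76998646, plus strand: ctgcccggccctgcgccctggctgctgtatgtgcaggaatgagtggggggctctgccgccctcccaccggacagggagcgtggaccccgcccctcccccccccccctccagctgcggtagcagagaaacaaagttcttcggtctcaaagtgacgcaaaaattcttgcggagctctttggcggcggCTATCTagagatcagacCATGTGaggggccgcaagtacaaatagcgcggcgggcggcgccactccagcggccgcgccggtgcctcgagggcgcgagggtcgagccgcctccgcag
Hdc held 1 GATA match, TGATAG, starting at -221 from the start site, and Tph1 1 match, AGATAG, at -236. Slc6a4 held 1 GATA match on the opposite strand, read as CTATCT, at -65 and 1 E-box match, CATGTG, at -48. Of 32817 windows of this length in the RefSeq table, 29.8% held a GATA match and 20.4% an E-box match, so such matches are common. Slc18a2 held 2 GATA matches and Maoa 1, while the downstream Tph1 window, both Ddc windows and that of Hnmt held neither motif. TATAAA, searched on the gene's strand, was in none of the members' windows and in 8.33% of all windows. The table matched 7 of the 8 genes, all but Maob.

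Slc18a2, the vesicular monoamine transporter VMAT2 that loads histamine and serotonin into granules (chromosome 19, 59335368 to 59370502), varied least of the genes above 1 RPKM. It stood at 19.7 and 28.6 RPKM in the KAI1 knockdown, against 65.2 and 28.7 RPKM in the knockdown controls. KAI1 knockdown replicate 2 and control replicate 2 thus stood at nearly the same level, and control replicate 1 alone was high. The log2 difference was -0.84 (SE 0.48; adjusted p = 0.83 by limma) and -0.27 without control replicate 1. It stood at 18.9 RPKM in the KAI1 overexpression, against 21.4 RPKM in its control, a ratio of 0.882. Its highest library was 3.45 times its lowest, against 36.0 times for Hdc, 63.1 times for Slc6a4, 121 times for Ddc and 290 times for Tph1.

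The breakdown enzymes were low or listed at 0, with the exception of Maob in control replicate 1. Maoa and Maob, which encode the monoamine oxidases of the outer mitochondrial membrane, lie 21468 bp apart on chromosome X (16196824 to 16264938 and 16286407 to 16394492). Maoa, the form that prefers serotonin, stayed between 0.205 and 0.308 RPKM in all 6 libraries, or about 8.3 to 31.3 reads by the estimated depth. It stood at 0.289 and 0.308 RPKM in the KAI1 knockdown, against 0.246 and 0.209 RPKM in the knockdown controls. It did not reach the mean of 1 RPKM set for the test.

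Maob stood at 0.294 and 0.194 RPKM in the KAI1 knockdown, against 21.4 and 1.78 RPKM in the knockdown controls. The values matched 9 and 9 reads in the KAI1 knockdown and 973 and 42 reads in the controls. The upper end of the 95% interval was 0.558 RPKM in KAI1 knockdown replicate 1 and the lower end 1.28 RPKM in control replicate 2, so the groups were apart beyond counting error. The log2 difference was -2.67 (SE 1.05), which limma did not call (adjusted p = 0.83). Maob had 43 reads or 0.92 RPKM in the KAI1 overexpression, against 0 reads in the overexpression control, for which the limit of 3 reads, a one-sided one, is 0.0486 RPKM.

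Hnmt, the enzyme that methylates histamine inside the cell, was listed at 0 in all 6 libraries. So were 31.1% of all entries, while 12 of 12 housekeeping genes looked up had a value above 0 in each library. Aoc1, the diamine oxidase that degrades histamine outside the cell, stood at 0.492 RPKM or less.

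**Figure D1:**
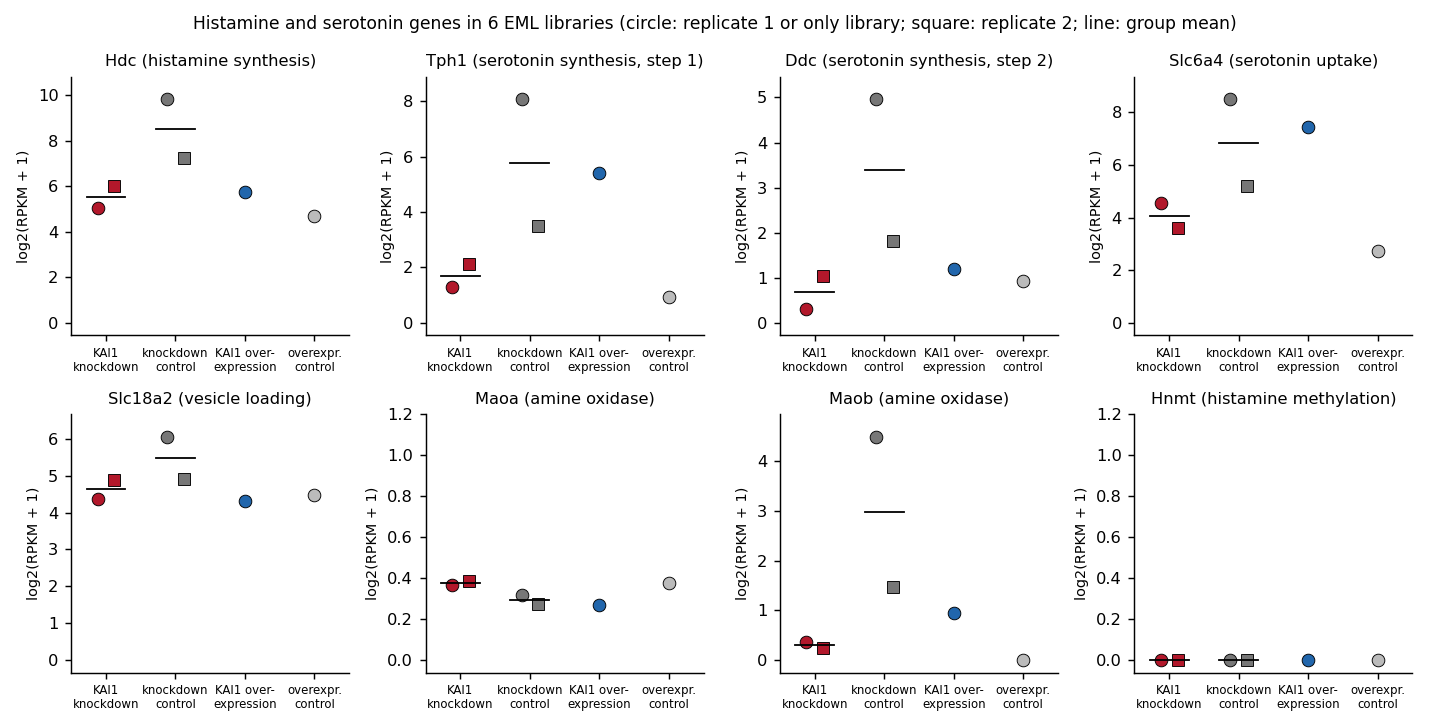
Level of each of the 8 genes as log2(RPKM + 1), by group, with 1 point for each library (circle: replicate 1 or the only library; square: replicate 2) and a line at the mean of the log2 values of each group of 2. Control replicate 1 is highest for Hdc, Tph1, Ddc, Slc6a4, Slc18a2 and Maob, and Tph1 and Slc6a4 are high in the KAI1 overexpression, at 41.2 and 172 RPKM, against 0.917 and 5.65 RPKM in its control. Vertical scales differ between panels.

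The members all lay lower in the KAI1 knockdown where they were tested, and none passed the test. Of the 6 members that reached the mean of 1 RPKM in the knockdown arm, 0 were called by limma, where 0.0297% of all entries tested were called, and 0.0198% as lower. Limma gave 1 member, Hdc, an unadjusted p under 0.05 (0.0322), as it did for 3.32% of all entries, 1.51% as lower. In 6 of the 6 both KAI1 knockdown libraries lay below both controls, where 17% of all entries did so. Ddc and Maob reached the mean of 1 RPKM only through the controls, so the filter partly set their place in this and every other count of members given for this arm. The other 4 members, Hdc, Tph1, Slc6a4 and Slc18a2, averaged over 1 RPKM in each group, and the order of Slc18a2 rests on 28.6 against 28.7 RPKM. In Hdc and Tph1 of these 4 the groups were also at least 2-fold apart on the RPKM + 1 scale, as in 0.326% of all entries in that direction. The median log2 difference over all entries tested was 0.028.

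The size of these differences depended on control replicate 1. Without it the differences were -1.69 for Hdc, -1.80 for Tph1, -1.13 for Ddc, -1.13 for Slc6a4 and -1.16 for Maob, with 0 of 6 members called (adjusted p from 0.406 to 0.676), 0.138% of all entries called lower, and with Hdc and Tph1 at an unadjusted p under 0.05, where 5.23% of all entries were so and lower; Ddc and Maob, which the controls alone brought past the filter, were also under 0.05. Without control replicate 2 they were -4.27 for Hdc, -6.35 for Tph1, -4.27 for Ddc, -4.42 for Slc6a4 and -4.17 for Maob, and limma called these 5 (adjusted p from 0.0136 to 0.0308), where it called 6.29% of all entries lower. Slc18a2 was -1.42 and was not called (adjusted p = 0.0671). In both fits the lone control is taken to vary as the knockdown pair does. Both KAI1 knockdown libraries lay below control replicate 2 taken alone in all 6 genes, as in 36% of all entries, and their mean was 0.322 of its level for Hdc, 0.232 for Tph1, 0.26 for Ddc, 0.466 for Slc6a4, 0.839 for Slc18a2 and 0.137 for Maob.

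**Figure D2:**
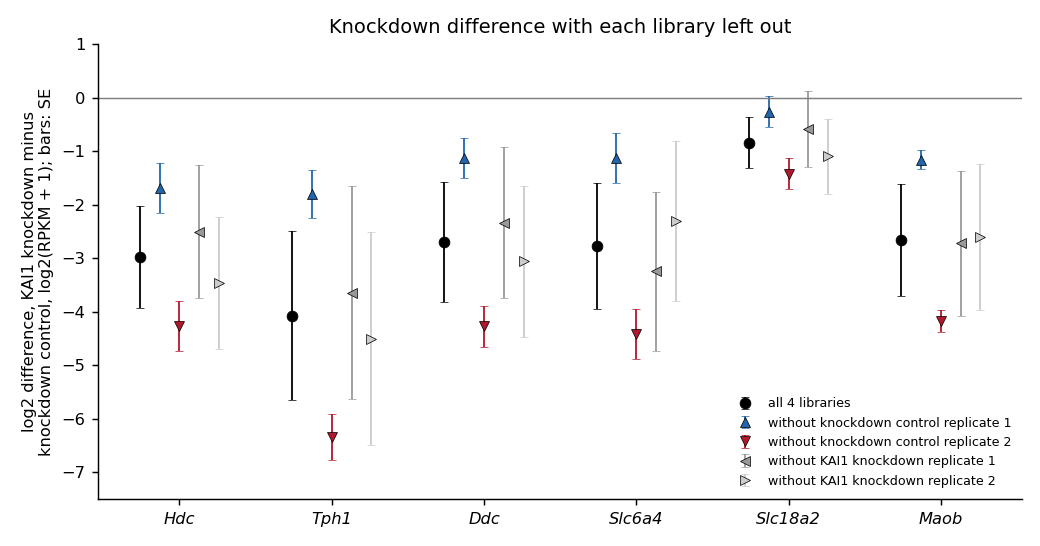
Log2 difference of 6 genes, KAI1 knockdown minus knockdown control on the log2(RPKM + 1) scale, with its SE from limma, for all 4 libraries and with each library left out. All values lie below 0. Without control replicate 1 they run from -1.80 to -0.27, without control replicate 2 from -6.35 to -1.42.

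The order against controls held for the knockdown controls and not for the overexpression control. In the overexpression control Hdc, Tph1, Slc6a4 and Maob lay below both KAI1 knockdown libraries, and Ddc and Slc18a2 between them. The overexpression control entered no test of the knockdown.

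Of the 5 members that averaged 1 RPKM or more in the overexpression arm, 3 (Hdc, Tph1 and Slc6a4) were at least 2-fold higher on the RPKM + 1 scale in the KAI1 overexpression, where 4.92% of all entries were. Tph1 and Ddc reached the mean of 1 RPKM only through the KAI1 overexpression library, so the filter partly set their place among these 5. The number at least 2-fold lower was 0, where 5.21% of all entries were. The median log2 ratio over all 9936 entries was 0.0057.

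Cell type markers also differed between these libraries. The summed level of 16 mast cell and basophil genes, a list that held no member, was 9284 and 8241 RPKM in the KAI1 knockdown, against 77960 and 17060 RPKM in the knockdown controls, and 28730 RPKM in the KAI1 overexpression, against 6959 RPKM in its control. The protease genes Mcpt2, Cma1 and Cpa3 made up most of each sum. Fcer1a, the alpha chain of the IgE receptor, was listed at 0 and 0.289 RPKM in the KAI1 knockdown, against 24.2 and 0 RPKM in the knockdown controls. In the KAI1 overexpression Fcer1a was at 7.41 RPKM, against 0.261 RPKM in its control. Both KAI1 knockdown libraries lay below both controls in 8 of the 14 marker genes tested, where 17% of all entries did so. In the KAI1 overexpression 11 of 14 were at least 2-fold higher, where 4.92% of all entries were. Of these 11, Tpsab1, Fcer1a, Ms4a2 and Prss34 reached the mean of 1 RPKM only through the KAI1 overexpression library. The filter thus partly set their place in that count. Mcpt1 and Prg2 did not reach it, at 0.415 and 0 RPKM in the KAI1 overexpression, against 1.41 and 0.169 RPKM in its control. The sum of 9 erythroid genes was 3162 and 3801 RPKM in the KAI1 knockdown, against 105 and 4052 RPKM in the knockdown controls, and 927 RPKM in the KAI1 overexpression, against 2773 RPKM in its control. Globin genes made up most of each erythroid sum. Platelets also carry Slc6a4 and Slc18a2, and the sum of 9 megakaryocyte and platelet genes was 727 and 1269 RPKM in the KAI1 knockdown, against 2411 and 920 RPKM in the knockdown controls. It was 336 RPKM in the KAI1 overexpression, against 754 RPKM in its control, a difference made mostly by Pf4, at 67.9 RPKM in the KAI1 overexpression, against 479 RPKM in its control. Of the 6 platelet genes measured in that arm, 2 (Pf4 and Gp9) were at least 2-fold lower and 0 at least 2-fold higher. Gp1ba was also lower, at 6.3 RPKM in the KAI1 overexpression, against 10.4 RPKM in its control. Ppbp stood at 30.8 RPKM in the KAI1 overexpression, against 20.6 RPKM in its control. Itga2b was at 215 RPKM, against 203 RPKM, and Itgb3 at 14.1 RPKM, against 10.6 RPKM. The 10 neutrophil and monocyte genes summed to 1218 and 923 RPKM in the KAI1 knockdown, against 1092 and 1231 RPKM in the knockdown controls, and 1427 RPKM in the KAI1 overexpression, against 1732 RPKM in its control. Mpo and Ctsg made up most of these sums. Mpo stood at 750 and 470 RPKM in the KAI1 knockdown, against 7.84 and 538 RPKM in the knockdown controls, and stood at 45.8 RPKM in the KAI1 overexpression, against 661 RPKM in its control. Ctsg stood at 444 and 434 RPKM in the KAI1 knockdown, against 1080 and 643 RPKM in the knockdown controls, and stood at 1295 RPKM in the KAI1 overexpression, against 1034 RPKM in its control. Of the 6 of these genes measured in the overexpression arm, 4 were at least 2-fold lower, where 5.21% of all entries were. The number at least 2-fold higher was 1, where 4.92% of all entries were. The median log2 ratio of the 6 was -1.99. Of the 4 lower genes, Prtn3, Lyz2 and S100a9 reached the mean of 1 RPKM only through the overexpression control. The filter thus partly set their place in that count. Enterochromaffin and neuronal genes summed to 1.99 RPKM or less in each library, with Tph2 and Slc6a3 listed at 0 in all. The part of these marker differences in the members' values was not tested.

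The members fell into different profiles across the libraries. Likeness was measured as the root mean square difference of log2(RPKM + 1) profiles over the 6 libraries, after each gene was centred on its own mean. Among the pairs of the 6 genes that averaged 1 RPKM or more, Ddc and Maob were the most alike (0.33), followed by Hdc with Maob (0.47), Hdc with Ddc (0.51) and Tph1 with Slc6a4 (0.84). Tph1 and Hdc were 1.35 apart. Low levels bring profiles closer on this scale, since the pseudocount of 1 damps values under 1 RPKM. The feature that set Tph1 and Slc6a4 apart was the KAI1 overexpression library, their second highest, whereas Hdc, Ddc and Maob were second highest in control replicate 2.

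The balance between the genes therefore differed by library. Hdc was 22.9 and 18.9 times Tph1 in the KAI1 knockdown, against 3.40 and 14.5 times in the knockdown controls, and it was 1.28 times Tph1 in the KAI1 overexpression, against 27.4 times in its control. Slc6a4 was 1.13 and 0.389 times Slc18a2 in the KAI1 knockdown, against 5.47 and 1.24 times in the knockdown controls, and 9.13 times in the KAI1 overexpression, against 0.264 times in its control. Plasma membrane transporter RNA thus exceeded vesicular transporter RNA in 4 of the 6 libraries.

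**Figure D3:**
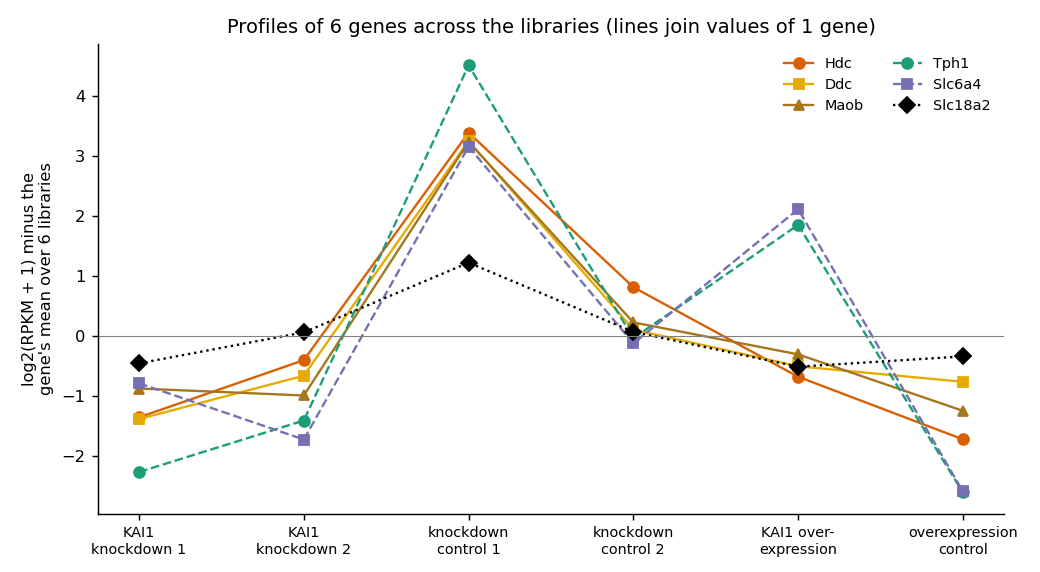
Log2(RPKM + 1) of 6 genes minus each gene's mean over the 6 libraries, by library. All 6 genes peak in knockdown control 1. Tph1 and Slc6a4 (dashed) lie above their mean in the KAI1 overexpression library, where Hdc, Ddc and Maob (solid) and Slc18a2 (dotted) lie below theirs.

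The genes nearest in profile, among 9898 other entries averaging 1 RPKM or more, differed between members. The nearest to Tph1 were the tryptase genes Tpsg1 (0.53), Tpsb2 (0.64) and Tpsab1 (0.70), which encode mast cell proteases; Tpsb2, Tpsab1 and Cma1 are also on the mast cell marker list. Tpsg1, for example, stood at 1.28 and 5.58 RPKM in the KAI1 knockdown, against 354 and 7.10 RPKM in the knockdown controls, and stood at 20.5 RPKM in the KAI1 overexpression, against 0.564 RPKM in its control. The nearest to Slc6a4 were Cma1 (0.47), which encodes a mast cell chymase, Vwa5a (0.51) and Spink2 (0.52). For Hdc they were 1700042O10Rik (0.45), 4930572O03Rik (0.51) and 4933405D12Rik (0.58). The nearest to Ddc were 1700042O10Rik (0.18), 4930572O03Rik (0.25) and Speer4e (0.30), and those to Maob the same first pair (0.28 and 0.29) with Gm973 (0.35). The nearest to Slc18a2, which varied little, were Cnst (0.071), the glucose transporter gene Slc2a8 (0.096) and the sorting nexin gene Snx21 (0.13). Each distance rests on the same 6 libraries.

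Other genes of the pathways were read from lists of 69 genes, of which 68 had an entry and 37 stayed below 1 RPKM in every library. Limma called 0 of the 30 tested in the knockdown arm and 3 had an unadjusted p under 0.05 (Qdpr, Pdxp and Hrh4), where 3.32% of all entries did. Both KAI1 knockdown libraries lay below both controls in 5 and above them in 7, where 17% and 21.5% of all entries did so. The median log2 difference was -0.24. Of 31 measured in the overexpression arm, 6 exceeded the control at least 2-fold, where 4.92% of all entries did, and 0 fell short of it by as much, where 5.21% did. Their median log2 ratio was 0.13. In the knockdown arm Hrh4 reached the mean of 1 RPKM only through the controls. In the overexpression arm it did so only through the KAI1 overexpression library. The filter thus partly set its place in these counts.

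Tryptophan hydroxylase needs tetrahydrobiopterin, a cofactor that the cell makes from GTP and regenerates after use. Gch1, GTP cyclohydrolase, which starts the synthesis, stood at 5.41 and 8.80 RPKM in the KAI1 knockdown, against 60.01 and 7.19 RPKM in the knockdown controls. It stood at 23.0 RPKM in the KAI1 overexpression, against 6.16 RPKM in its control. Gchfr, its feedback regulator, stood at 105 and 137 RPKM in the KAI1 knockdown, against 977 and 110 RPKM in the knockdown controls, so that control replicate 1 alone was high in that arm. The later enzymes Pts and Spr and the recycling enzyme Pcbd2 lay between 11.8 and 43.1 RPKM over all libraries, and Pcbd1, also of the recycling route, between 0 and 6.15 RPKM. Qdpr, which regenerates the cofactor, stood at 41.1 and 37.7 RPKM in the KAI1 knockdown, against 65.4 and 69.2 RPKM in the knockdown controls, a log2 difference of -0.76 (SE 0.23) that limma did not call (adjusted p = 0.83). Here the controls were close to each other.

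Hdc and Ddc use pyridoxal phosphate, the active form of vitamin B6. Pdxk, the kinase that makes it, stood at 16.0 and 18.1 RPKM in the KAI1 knockdown, against 69.2 and 15.04 RPKM in the knockdown controls, and stood at 33.2 RPKM in the KAI1 overexpression, against 17.2 RPKM in its control. Pdxp, the phosphatase that removes the active form, stood at 18.3 and 23.3 RPKM in the KAI1 knockdown, against 12.2 and 12.9 RPKM in the knockdown controls (log2 difference 0.68; adjusted p = 0.83 by limma).

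Uptake of the precursor amino acids was represented by Slc7a5 and Slc3a2, the light and heavy chains of a transporter of large neutral amino acids, and by the related light chain Slc7a8. Slc7a5 stood at 51.8 and 71.2 RPKM in the KAI1 knockdown, against 302 and 61.3 RPKM in the knockdown controls. It stood at 163 RPKM in the KAI1 overexpression, against 61.4 RPKM in its control, and Slc3a2 at 232 RPKM, against 103 RPKM. Slc7a8 was within 45.5 and 123 RPKM throughout.

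Slc22a3, an organic cation transporter that carries histamine and serotonin with low affinity, had the opposite pattern to the members in control replicate 1. It stood at 26.1 and 26.3 RPKM in the KAI1 knockdown, against 1.86 and 17.8 RPKM in the knockdown controls, and stood at 25.9 RPKM in the KAI1 overexpression, against 29.8 RPKM in its control. Its log2 difference in the knockdown arm was 1.89, which limma did not call (adjusted p = 0.83). The other 7 amine transporters on the list stayed below 1 RPKM. Of the enzymes that act on the aldehydes that monoamine oxidases produce, Aldh2 stood at 28.1 and 31.5 RPKM in the KAI1 knockdown, against 114 and 19.6 RPKM in the knockdown controls, and Akr1b3 lay between 51.0 and 107 RPKM.

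Receptors were scarce. Hrh4, the histamine receptor of blood cells, stood at 0.216 and 0 RPKM in the KAI1 knockdown, against 7.58 and 1.19 RPKM in the knockdown controls, and stood at 4.43 RPKM in the KAI1 overexpression, against 0.0268 RPKM in its control. It followed Tph1 and Slc6a4 in being high in control replicate 1 and in the KAI1 overexpression. Htr1b, a serotonin receptor, stood at 1.96 and 2.53 RPKM in the KAI1 knockdown, against 8.16 and 0.976 RPKM in the knockdown controls, and stood at 5.82 RPKM in the KAI1 overexpression, against 2.35 RPKM in its control. The other 3 histamine and 13 serotonin receptor genes listed stayed below 1 RPKM, 11 of the serotonin receptor genes at 0 in every library.

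Among transcription factors linked to mast cell genes, Gata2 stood at 74.3 and 128 RPKM in the KAI1 knockdown, against 235 and 91.0 RPKM in the knockdown controls, and stood at 161 RPKM in the KAI1 overexpression, against 112 RPKM in its control. Mitf stood at 3.22 and 4.62 RPKM in the KAI1 knockdown, against 13.6 and 3.92 RPKM in the knockdown controls, and stood at 9.38 RPKM in the KAI1 overexpression, against 2.61 RPKM in its control. Gata1 was 48.5 RPKM or more in the knockdown arm and 36.7 RPKM or less in the overexpression arm. Stat5a stood at 53.4 and 69.9 RPKM in the KAI1 knockdown, against 27.4 and 50.9 RPKM in the knockdown controls, while Stat5b and Ikzf1 lay between 13.2 and 28.6 RPKM throughout.

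**Figure D4:**
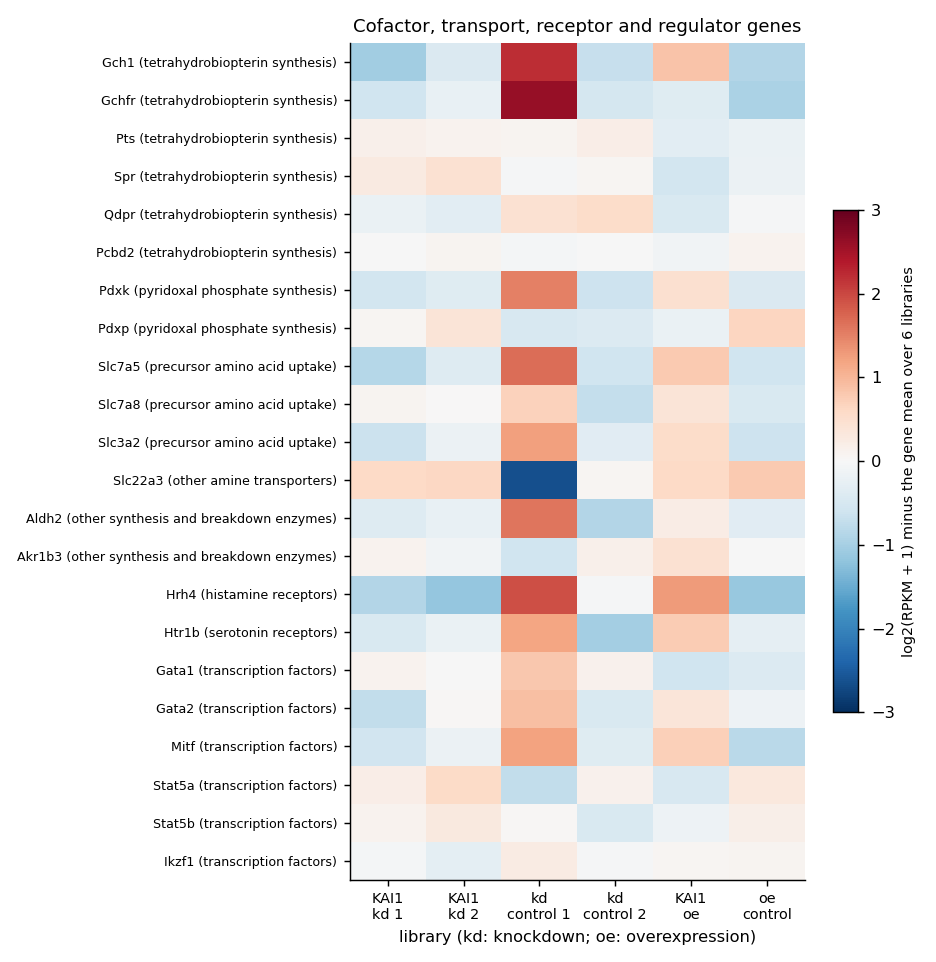
Log2(RPKM + 1) of the named cofactor, transport, enzyme, receptor and transcription factor genes minus each gene's mean over the 6 libraries; red is above and blue below that mean. Most of the strong colours stand in knockdown control 1, where Gch1 and Gchfr are highest, at 60.01 and 977 RPKM, and Slc22a3 lowest, at 1.86 RPKM.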

How the data were processed

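Total RNA of 6 EML libraries was sequenced, on an Illumina GAIIx per the series design. For each library the authors deposited a table whose header names its values RPKM. Build mm9, TopHat2 2.0.9, Bowtie and Cufflinks are named in the submitters' processing notes, without settings. Of 23170 entries, 24 repeated an accession and locus (20 with identical values) and 23146 were used. Symbols came from RefSeq (22840 entries) and GENCODE (125). Deposited starts count from 0 and are printed from 1.

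Relative depth was taken from the ratio most often shared by values under 1 RPKM, and absolute depth from 239 entries of known transcript length (18400000 reads for knockdown control replicate 1, quartiles 16400000 and 19200000). Read counts of Ddc and Maob are the whole numbers that match the values within 0.01 read, except Ddc in that control. RPKM are not counts, so the main test is on a log scale.

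Limma 3.58.1 under R 4.3.3 compared log2(RPKM + 1) of KAI1 knockdown and knockdown control with a trended variance, without a replicate block, two-sided, adjusted by Benjamini and Hochberg over the 10113 entries that averaged 1 RPKM or more, at a threshold of 0.05; it was tested on simulated data. This scale understates changes of low genes. The overexpression arm, with 1 library a group, has no test. Alternatives were other pseudocounts, filters, scalings, no trend, the replicate block and each library left out. The members and lists were chosen with earlier results of these data known. Text names all 8 members, list genes with a mean of at least 10 RPKM or at least 2-fold apart with a mean of at least 1 RPKM, and the 3 nearest profiles of each member; Tph2, Aoc1, Pf4, Gp9, Ppbp, Itga2b, Itgb3, Mpo, Ctsg, Pcbd1, Mcpt8, Prss34 and Fcer1a were added after their values were seen, and 1 list gene that meets the rule is not reported here.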

Additional observations from a re-analysis of the deposited data

How the results depend on the processing

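The 6 tested members kept a negative knockdown difference under all alternatives run, from -4.52 to -0.76 with another pseudocount, filter or scaling, with no trend and under the replicate block. Limma called 0 members in all of these, and 5 without knockdown control replicate 2, so that the leave-one-out range was 0 to 5. The number of all entries called moved from 3 to 5 with a pseudocount of 0.1, 0 with a pseudocount of 5, 20 without a filter and 0 with small RNA entries left out, and it ran from 0 to 1045 with a library left out. The cause was not tested. The members with both KAI1 knockdown libraries below both controls numbered 5 with small RNA entries left out, where Slc18a2 overlapped, and 6 otherwise. Without a filter Maoa, at under 1 RPKM in all libraries, had both KAI1 knockdown libraries above both controls. Members at least 2-fold higher in the KAI1 overexpression numbered 2 with a pseudocount of 5, where Hdc had 0.94, and 3 otherwise; the log2 ratio of Tph1 ran from 2.96 to 5.34 and that of Slc6a4 from 4.06 to 4.91. With a filter at a mean of 5 RPKM Ddc gave no value in that arm. The labels number the replicates of the knockdown arm alike, but replicate deviations from the group means correlated at -0.075 across entries, so the numbers were not taken as pairs. The replicate block called 4 entries and 0 members. With it limma gave 5 members an unadjusted p under 0.05, as it did for 267 of all 10113 entries, 137 of them lower. Ddc and Maob, among these 5, reached the mean of 1 RPKM only through the controls. Values under about 1 RPKM rest on few reads, and estimated depth ranged from 9560000 to 25000000 reads.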
